A study of Mus musculus with 8 samples.

Results

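Antigen presentation and co-stimulation were followed in A20 cells through 34 genes chosen by name from the MHC class I and class II pathways and from the surface ligands that accompany them. They were 34 of the 34797 gene names on the array. A total of 32 were bright enough to be tested, among 19973 genes tested in all, and each of the 32 exceeded background clearly on all 8 arrays. The other members, Cd1d1, which presents lipids to natural killer T cells, and Pdcd1lg2, a ligand of the inhibitory receptor PD-1, did so on none of the 8 arrays.

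MHC class I displays peptides from the cytosol to CD8 T cells. Its heavy chain pairs with beta-2 microglobulin, the proteasome cuts the peptides, the TAP transporter carries them into the endoplasmic reticulum, tapasin holds the empty molecule beside TAP, and NLRC5 is the transactivator of this gene set. MHC class II displays peptides from endosomes to CD4 T cells. It travels with the invariant chain, is loaded by H2-DM under the restraint of H2-DO, and is transcribed through CIITA and the RFX complex, while CD80, CD86 and ICOS ligand give the T cell its accompanying signal. B cells use class II and these ligands to obtain T cell help.

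A20 is a mouse B lymphoma line of mature B cell type, known to carry a surface IgG of its own. Stable transfectants carrying IgE, clones 18 and 41, were set against a stable transfectant carrying membrane IgM and against untransfected A20, with 2 arrays for each of the 4 lines. The question put by the design was how the transcriptome of the IgE transfectants differs from that of these controls. Each IgE line is 1 clone, so a clone's own history and its IgE cannot be told apart within it. Whether the IgM transfectant is a clone, and which promoter drives each chain, is not given in the sources used here. All lines grew in the same medium with 10% serum and 50 µM mercaptoethanol at 500000 cells/mL, and 1 µg of RNA went to each array. The labels number the arrays of a line 1 and 2 without saying that they are separate cultures. In the main fit the p-values measure the spread between the 2 arrays of a line, taken over the 4 lines. That spread may be technical, and it leaves out the spread between the lines of a side.

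Values below are log2 intensities relative to the 75th percentile of their own array, so 0 is the level of that percentile. They compare lines for 1 probe and do not rank genes against each other. The 75th percentile was 474 to 524 intensity units on the 4 IgE arrays and 584 to 664 on the 4 control arrays. Arrays of a line differed with an SD over the tested members of 0.36 in clone 18, 0.33 in clone 41, 0.42 in IgM cells and 0.77 in untransfected cells. The untransfected arrays thus stood farthest apart, and the counts without each of them are given with the results. All 8 B cell markers listed, Cd79a and Cd79b among them, were well above background on every array. Their summed level, on the linear scale relative to the percentile, was 175 to 214 on IgE arrays and 184 to 290 on control arrays. With the IgE lines set against the control lines, 7 of these 8 markers had a negative log2 difference. Their median was -0.84, and that of all genes was 0.04. For other cell types, 3 of 8 dendritic cell markers, 4 of 7 macrophage markers and 4 of 8 T cell markers were above background on every array. Batf3, Xcr1, Clec9a, Mertk, Lyz2, Cd14 and Cd8a were above it on none. The summed level of the dendritic cell markers was 119 to 135 on IgE arrays and 102 to 113 on control arrays, and its brightest gene, Siglech, was saturated on all 8. For the macrophage markers it was 47.5 to 69.2 on IgE arrays and 44.4 to 57.5 on control arrays, and for the T cell markers 4.96 to 5.91 on IgE arrays and 4.44 to 6.01 on control arrays. The part of these markers in the results was not tested.

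Over both IgE lines, Nlrc5 and the class I light chain B2m were lower and Tapbp, Rfx5 and the class II gene H2-Ob higher. Cd86 and Btla were called through 1 control line each. With each clone set against each control, Tapbp was called in 3 of 4 comparisons, H2-Ob in 1, against IgM cells, and Rfx5 in 0. A gene was called when the adjusted p of the limma fit was under 0.05 and the difference at least 2-fold. With the mean of both IgE clones set against the mean of both control lines, 7 of the 32 members were called, against 8.99% of all genes. Of these, 5 were higher, against 3.4% of all genes, and 2 were lower, against 5.59%. The median log2 difference of the members was 0.27 and that of all genes was 0.04. An unadjusted p under 0.05 was reached by 18 of the 32 members and by 6904 of the 19973 genes. The members were chosen with earlier results of these data known, so these counts are descriptive. The count of 7 members became 10 without untransfected replicate 1 and 7 without untransfected replicate 2. Left as deposited with no scaling between arrays, 2 members were higher and 6 lower, with the median of all genes at -0.29.

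**Figure D1:**
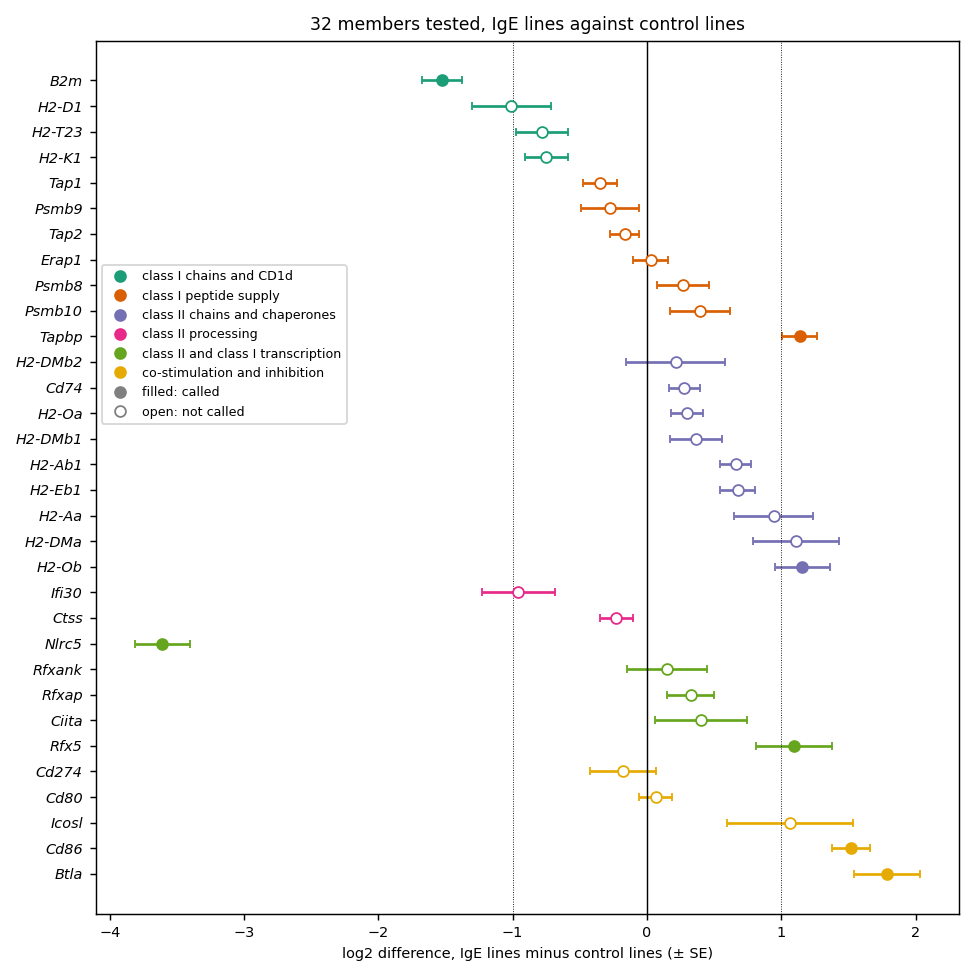
Log2 difference of the mean of the 2 IgE clones minus the mean of the 2 control lines for the 32 members tested, grouped by role, with bars of 1 SE. Filled points were called, and dotted lines mark a 2-fold difference. Nlrc5 lies far to the left at -3.61, and the 4 class I chains lie left of 0. The points of the saturated Cd74 and H2-Ab1 are drawn as recorded and measure no size.

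The clones were then compared singly with the controls. In clone 18 against untransfected cells, 2 members were higher, against 3.34% of all genes, and 3 lower, against 4.35%, so 5 were called where 7.69% of all genes were. In clone 41 against untransfected cells, 1 was higher, against 2.42% of all genes, and 2 were lower, against 3.18%, with 5.6% of all genes called. Against IgM cells, clone 18 had 2 higher, against 3.4% of all genes, and 2 lower, against 5.74%, with 9.14% called in all. Clone 41 against IgM cells had 5 higher, against 2.66% of all genes, and 2 lower, against 4.73%, with 7.39% called in all. Both members called in all 4 comparisons, a pattern of 2.93% of all genes, were lower, and these were Nlrc5 and B2m, while 1.88% of all genes were lower in all 4. No member was higher in all 4, as 1.05% of all genes were. Comparisons with the same control share its arrays.

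The controls differed from each other in 2 members. In IgM cells against untransfected cells, Btla was higher, as were 1.22% of all genes, and Cd86 lower, as were 0.811%, with 2.03% called in all. Between clone 41 and clone 18, limma called 0 of the 32 members, with 4 at an unadjusted p under 0.05 and 0.355% of all genes called (0.175% higher and 0.18% lower). In all, 10 members were called in at least 1 comparison, as were 14.1% of all genes, and 22 in none.

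**Figure D2:**
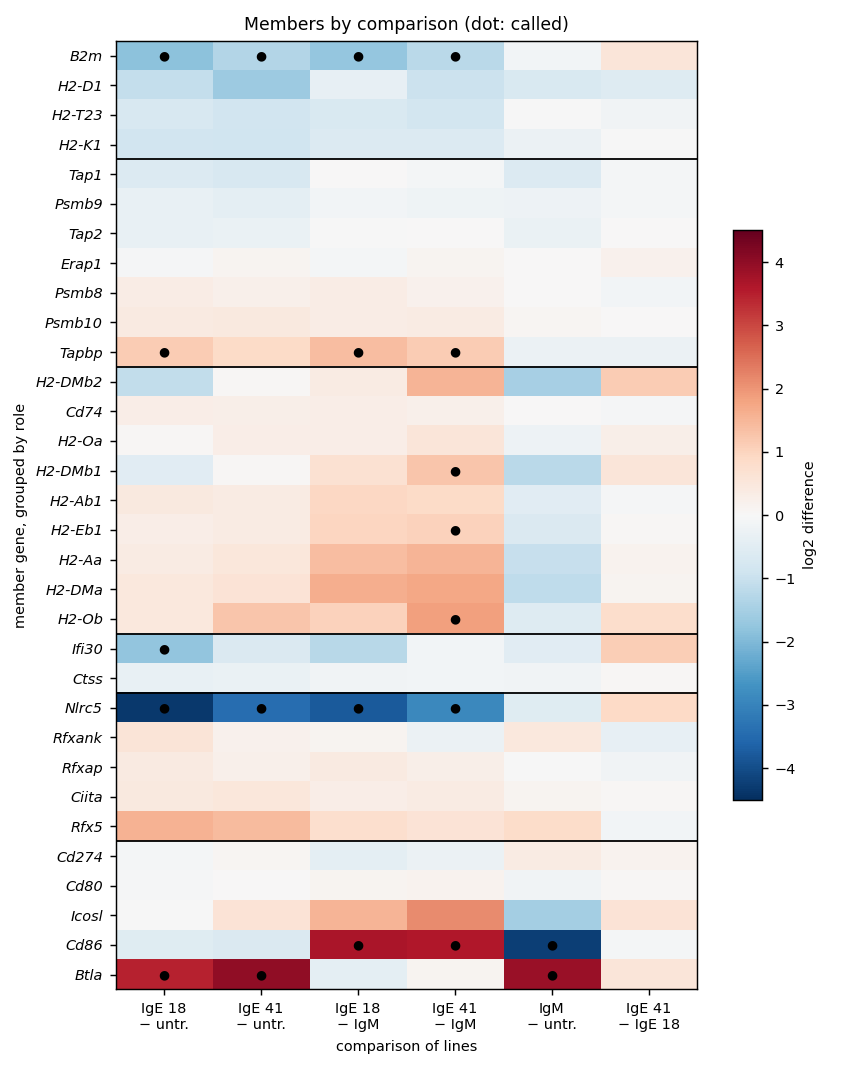
Log2 difference of each of the 32 members tested in 6 comparisons of lines (untr., untransfected), from blue (lower in the line named first) to red (higher), with a dot where the member was called. Rows are grouped by role. Nlrc5 and B2m carry a dot in all 4 clone columns, while Cd86 and Btla also carry a dot in the column of IgM minus untransfected.

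Of the 4 class I chains tested, B2m was lower in the IgE lines, and the heavy chains had negative differences that did not pass both thresholds. B2m encodes beta-2 microglobulin, the light chain that every class I heavy chain needs to reach the surface. Its levels were 4.67 and 4.88 in clone 18, 5.12 and 5.50 in clone 41, 6.36 and 6.67 in IgM cells, and 6.55 and 6.70 in untransfected cells. All 4 IgE arrays lay below all 4 control arrays, and clone 18 lay below clone 41. The IgE mean was 5.04 ± 0.36 and the control mean 6.57 ± 0.15 (SD, n = 4 arrays each), a log2 difference of -1.53 ± 0.15 (SE), 2.88-fold lower, with a limma adjusted p of 0.00103. A spot of the probe was saturated on 3 arrays, those of IgM replicate 2 and both untransfected replicates. B2m was therefore at least 3.60-fold lower in clone 18 and at least 2.49-fold lower in clone 41 than in untransfected cells. Against IgM cells it was 3.34-fold lower in clone 18 (limma adjusted p 0.0036) and 2.30-fold lower in clone 41 (0.0167). As recorded levels of saturated spots are too low, these values and the pooled one may understate the difference. The clone 41 call against IgM cells was lost without IgM replicate 1, IgM replicate 2 or clone 41 replicate 1 (adjusted p 0.0525, 0.0955 and 0.111), and the one against untransfected cells without clone 41 replicate 1 (0.106). Both were also lost with no filter on dim probes (0.0533 and 0.0562). In bulk samples, fewer cells with a transcript and less of it per cell cannot be told apart.

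The 250 bases before the start of B2m and of Tapbp, the tapasin gene described further on, are shown because these class I partners were called in opposite directions. Sequences are from RefSeq, and 26 of the 34 members have a promoter in the table used. Capitals mark ATTGG, the core of the Y box bound by NF-Y, and a pair of GAAA runs with 2 bases of any kind between them, the spacing of interferon-stimulated response elements, on either strand. The B2m window lies at chr2:122147437-122147686 and the Tapbp window at chr17:33919228-33919477 of GRCm38.p6, both on the plus strand.
B2m: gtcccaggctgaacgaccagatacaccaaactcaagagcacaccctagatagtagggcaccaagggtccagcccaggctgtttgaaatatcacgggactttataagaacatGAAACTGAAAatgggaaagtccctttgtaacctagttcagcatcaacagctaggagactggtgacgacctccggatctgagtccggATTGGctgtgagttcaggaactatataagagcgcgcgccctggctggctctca
Tapbp: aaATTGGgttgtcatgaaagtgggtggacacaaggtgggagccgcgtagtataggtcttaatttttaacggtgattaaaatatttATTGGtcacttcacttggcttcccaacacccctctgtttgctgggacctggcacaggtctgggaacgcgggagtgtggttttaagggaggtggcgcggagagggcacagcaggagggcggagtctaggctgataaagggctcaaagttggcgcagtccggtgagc
The B2m window holds GAAACTGAAA starting 139 bases and ATTGG 53 bases before the start. Tapbp holds ATTGG at 248 and 165 bases. ATTGG was found in 16 of the 26 member windows (61.5%) and in 33.8% of all 32851 promoter windows, and the GAAA pair in 3 member windows (B2m, Ctss and H2-T23) and in 2.98% of all. A match is a description of the letters and not of binding.

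The heavy chains H2-K1 and H2-D1 present peptides to CD8 T cells, and H2-T23, the Qa-1 gene, presents leader peptides to inhibitory receptors on natural killer cells. H2-K1 had levels of 5.61, 5.77, 5.61 and 5.71 on the IgE arrays and 6.16, 6.42, 6.29 and 6.84 on the control arrays. H2-T23 had 5.73, 5.57, 5.47 and 5.55 on the IgE arrays and 6.34, 6.34, 5.96 and 6.79 on the control arrays. For both genes every IgE array lay below every control array, but the difference was smaller than 2-fold. H2-K1 differed by -0.75 ± 0.16 (limma adjusted p 0.0224) and H2-T23 by -0.78 ± 0.19 (0.0372). H2-D1 had 5.26, 4.45, 4.22 and 4.31 on the IgE arrays and 5.25, 5.21, 5.33 and 6.50 on the control arrays. The sides overlapped through clone 18 replicate 1, and the difference was -1.01 ± 0.29 (limma adjusted p 0.0593). H2-K1 was saturated on 1 array. All 4 class I chains tested kept a negative difference under each scaling tried, with a median of -0.89 against 0.04 for all genes.

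A second H2-K1 probe lies in another stretch of the gene, at chr17:34133984-34134043 of mm9 on the minus strand. It gave 4.64 and 4.32 in clone 18, 4.11 and 4.30 in clone 41, 6.47 and 6.42 in IgM cells, and 4.80 and 5.60 in untransfected cells. IgM cells stood highest and both clones lowest, with no overlap between IgE and control arrays. In the fit of all 29140 probes it was lower in the IgE lines by -1.48 ± 0.20 (limma adjusted p 0.00409) and was called against IgM cells in both clones, at -1.96 and -2.24, but not against untransfected cells. The H2-T23 probe, whose target spans chr17:36167338-36167574 of mm9 on the minus strand, shares 29 consecutive bases with it. The probes are shown with that run in capitals, since either may bind transcript of the other gene.
H2-K1 second probe: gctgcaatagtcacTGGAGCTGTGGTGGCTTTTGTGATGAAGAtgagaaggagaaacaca
H2-T23 probe: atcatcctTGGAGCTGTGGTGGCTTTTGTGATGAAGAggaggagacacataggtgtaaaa
No other pair of probes of H2-K1, H2-D1, H2-T23 or the listed H2-Q, H2-T and H2-M genes shared 20 or more consecutive bases, apart from 1 pair of H2-Q10 and H2-T3. Outside these genes, the second H2-K1 probe also shared such a run with a probe of LOC100044874, and the H2-T23 probe with one of Gm11127. A20 comes from the BALB/c strain, whose class I alleles differ from those of the reference assembly, and the effect of such mismatches on the signal was not tested.

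Class I heavy chain genes outside the 34 were examined in the same way. Of 18 listed by symbol, 16 were on the array and 13 tested, of which 6 were lower and 0 higher in limma, with 11 at an unadjusted p under 0.05. Over all genes, 5.59% were lower and 3.4% higher in the IgE lines. One of the 13, H2-Ke2, now carries the symbol Pfdn6 and is no heavy chain gene. Without it 12 were tested, 6 were lower, and the median was -1.01. H2-Q8 was lower in all 4 clone comparisons, at -1.36 ± 0.18 in the IgE lines (limma adjusted p 0.00379). Mr1, which presents microbial vitamin B metabolites to MAIT cells, differed by -1.14 ± 0.19 (0.00943), H2-Q2 by -1.13 ± 0.16 (0.00508) and H2-Q6 by -1.12 ± 0.24 (0.0231). The H2-Q genes are near-identical copies, so their values may not be separate measurements. The count of 6 was 2 to 8 with any 1 array left out: 2 without untransfected replicate 2 or clone 18 replicate 2, and 3 without IgM replicate 2, clone 18 replicate 1 or either array of clone 41. It was 5 after quantile normalization, 4 after normexp, 3 in the authors' deposited table, 3 with no filter on dim probes and 9 with no scaling. H2-T24 differed by 1.44 ± 0.41 (limma adjusted p 0.0559).

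**Figure D3:**
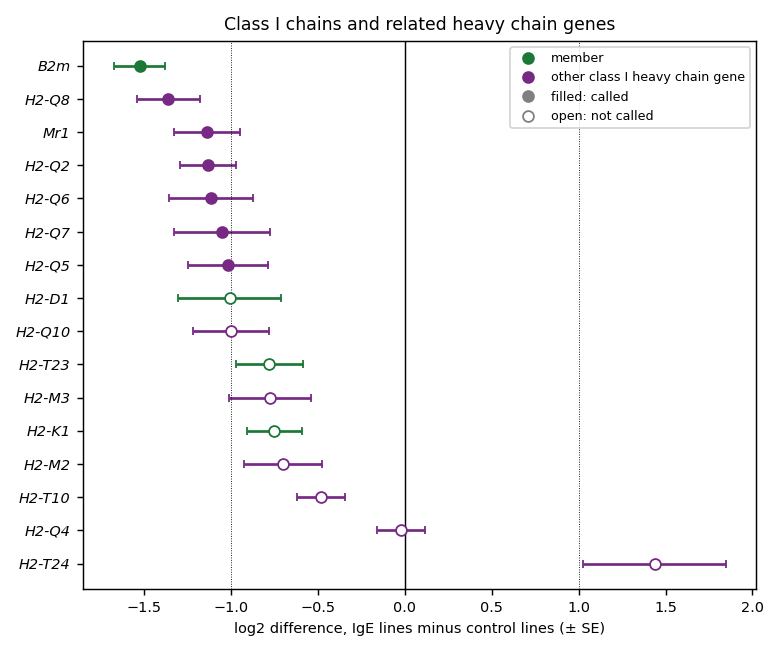
Log2 difference of the mean of the IgE lines minus the mean of the control lines, with bars of 1 SE, for the 4 class I chains among the members (green) and 12 other class I heavy chain genes (purple). Filled points were called, and dotted lines mark a 2-fold difference. Of the 16 genes, only H2-T24 lies right of 0.

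The members on chromosome 17 lie in a stretch of the MHC with many unrelated genes. Between their outermost probes, at chr17:34065963-36167574 of mm9, the other genes tested had 4 higher and 4 lower in the IgE lines. Their median log2 difference was 0.01. The share of them called was below the 8.99% of all genes, of which 3.4% were higher and 5.59% lower. The 16 members of the stretch had 2 higher and 0 lower with a median of 0.28. The 7 other class I heavy chain genes there had 0 higher and 4 lower with a median of -1.05. Sets of genes within this stretch thus had medians of opposite sign in the pooled comparison. The median of the 16 members, which include class I and class II genes, depended on the control. Against untransfected cells it was -0.14 in clone 18 and 0.13 in clone 41, and against IgM cells 0.35 and 0.71.

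Nlrc5, the transactivator of class I genes, was the member with the largest difference. Its levels were -1.10 and -1.18 in clone 18, -0.58 and 0.12 in clone 41, 2.49 and 2.82 in IgM cells, and 3.43 and 2.94 in untransfected cells. Every IgE array lay more than 2 log2 units below every control array. The IgE mean was -0.69 ± 0.60 and the control mean 2.92 ± 0.39 (SD, n = 4 arrays each). The difference was -3.61 ± 0.21 (SE), 12.2-fold lower, with a limma adjusted p of 0.000107. Against untransfected cells Nlrc5 differed by -4.33 in clone 18 and -3.42 in clone 41, while clone 18 minus IgM cells gave -3.80 and clone 41 minus IgM cells -2.89. Each of these calls stood under every alternative run on this probe. The probe lies at chr8:97051105-97051164 of mm9. A second Nlrc5 probe, at chr8:97030478-97030624, gave -2.91 and -3.16 in clone 18, -2.76 and -2.94 in clone 41, -2.26 and -2.10 in IgM cells, and -1.32 and -1.74 in untransfected cells. It kept the same order of lines with a smaller difference of -1.08 ± 0.15 (limma adjusted p 0.00437), and was called against untransfected cells in both clones but not against IgM cells. That pooled call fell below 2-fold after normexp (-0.62), in the authors' deposited table (-0.78) and without untransfected replicate 1 (-0.98).

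**Figure D4:**
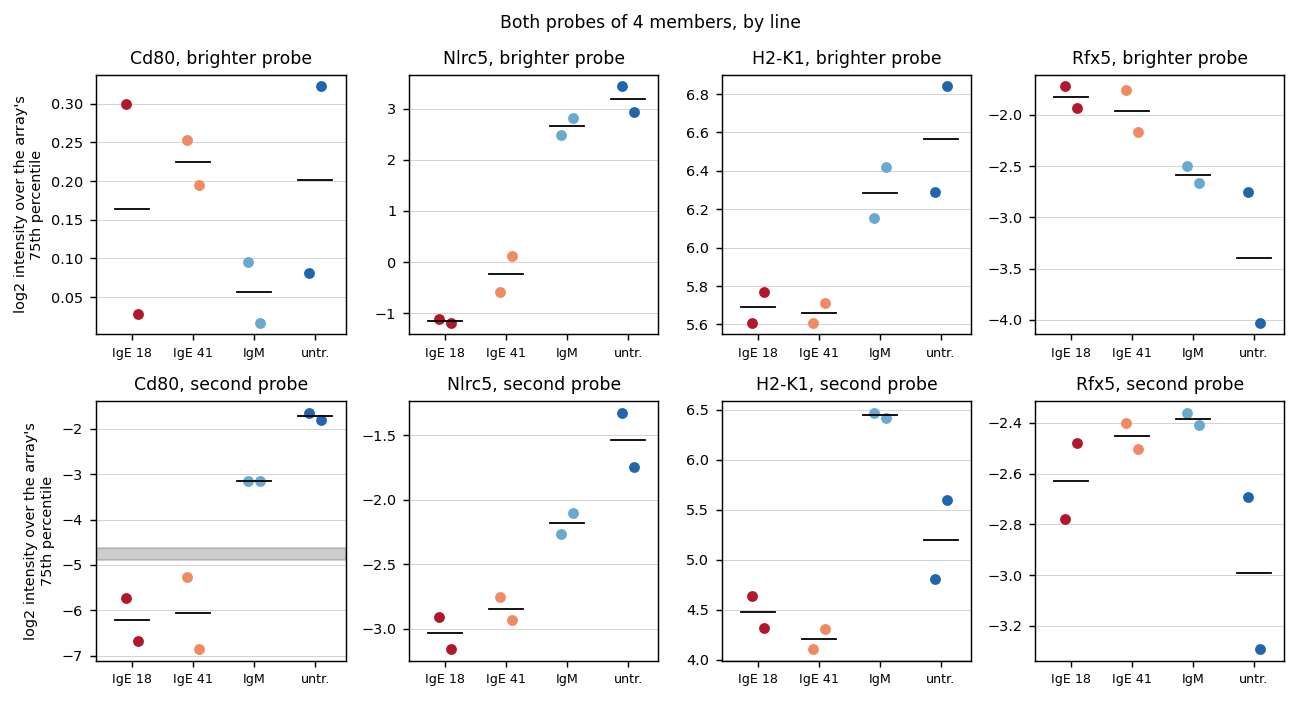
Log2 intensity relative to the array's 75th percentile on each of the 8 arrays for the brighter probe (top) and the second probe (bottom) of Cd80, Nlrc5, H2-K1 and Rfx5. Points are arrays, bars are means of a line (untr., untransfected), vertical scales differ, and the grey band is the lowest level well above background over the arrays. Both Nlrc5 probes and both H2-K1 probes are lower in the IgE clones, while the Cd80 probes differ from each other and so do the Rfx5 probes.

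Supply of class I peptides was called for 1 of 7 genes. Tapbp encodes tapasin, which bridges the empty class I molecule to TAP and edits its peptides. Its levels were 4.31 and 4.26 in clone 18, 4.12 and 3.92 in clone 41, 3.01 and 2.75 in IgM cells, and 3.29 and 3.01 in untransfected cells. All IgE arrays lay above all control arrays. The IgE mean was 4.15 ± 0.17 and the control mean 3.02 ± 0.22 (SD, n = 4 arrays each), a difference of 1.14 ± 0.13 (SE), 2.20-fold higher, with a limma adjusted p of 0.00215. It was called in clone 18 against both controls and in clone 41 against IgM cells, while clone 41 against untransfected cells gave 0.87. Clone 18 against untransfected cells lost its call without either clone 18 array (adjusted p 0.103 and 0.0822), and fell just under 2-fold without untransfected replicate 2 and after normexp (0.98). Clone 41 against IgM cells lost its call without either clone 41 array (adjusted p 0.101 and 0.0564) or without IgM replicate 2 (0.0841). Both fell under 2-fold with no scaling between arrays (0.78 and 0.83), while clone 18 against IgM cells kept its call in all 20 alternatives. With no scaling between arrays the pooled difference was 0.81, under 2-fold. Tapbp thus differed in the direction opposite to B2m and Nlrc5.

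The other peptide supply genes were not called. Tap1 and Tap2, the subunits of the transporter, differed by -0.35 ± 0.13 and -0.17 ± 0.11. The interferon-inducible proteasome subunits Psmb8, Psmb9 and Psmb10 differed by 0.27, -0.27 and 0.39. Erap1, which trims peptides in the endoplasmic reticulum, differed by 0.03 ± 0.13. The median of the 7 was 0.03, and its sign changed after normexp, in the authors' deposited table, with no scaling and without any 1 of untransfected replicate 2, clone 18 replicate 2 or clone 41 replicate 1. Of 14 further loading and proteasome genes, 4 had an unadjusted p under 0.05. In this list 1 gene was higher, against 3.4% of all genes, and 0 lower, against 5.59%. That gene was Tapbpl, the tapasin-related TAPBPR, which edits class I peptides away from TAP, at 1.44 ± 0.22 (2.71-fold, limma adjusted p 0.00695).

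Of the 9 class II chains and chaperones, H2-Ob was higher in the IgE lines, and calls against a single control were made only against IgM cells. Cd74 and H2-Ab1 were saturated on most arrays and were left out of the counts that follow, a choice made after seeing the data. In the pooled comparison the other 7 all had a positive difference, with a median of 0.67, and 1 was called. The number with a positive difference was 6 without untransfected replicate 2 or IgM replicate 2, and 5 with no scaling between arrays. Against IgM cells, clone 18 had 0 of the 7 higher in limma (median 0.97, with 5 at an unadjusted p under 0.05) and clone 41 had 3 (median 1.52). Against untransfected cells, limma called 0 in either clone, with medians of 0.31 in clone 18 and 0.38 in clone 41, and an unadjusted p under 0.05 for 0 in clone 18 and 1 in clone 41. In IgM cells against untransfected cells, all 7 were negative with a median of -1.03, and limma called 0, with 5 at an unadjusted p under 0.05.

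H2-Ob encodes the beta chain of H2-DO, which restrains the loading of class II by H2-DM. Its levels were 2.75 and 2.82 in clone 18, 3.25 and 3.90 in clone 41, 1.54 and 1.94 in IgM cells, and 2.06 and 2.56 in untransfected cells. Every IgE array lay above every control array, and clone 41 was highest. The IgE mean was 3.18 ± 0.53 and the control mean 2.02 ± 0.42 (SD, n = 4 arrays each), a difference of 1.16 ± 0.20 (SE), 2.23-fold higher, with a limma adjusted p of 0.0112. The pooled call was lost without clone 18 replicate 2 (adjusted p 0.0508), without clone 41 replicate 2 (0.99, under 2-fold) and with no scaling (0.83). In clone 41 against IgM cells H2-Ob was 3.57-fold higher (limma adjusted p 0.0123). That call was lost in the authors' deposited table (adjusted p 0.0501), without IgM replicate 1 (0.0753) and without clone 41 replicate 2 (0.0631). A second probe gave 0.98 ± 0.20 in the pooled comparison (limma adjusted p 0.0212) and was called against IgM cells in both clones, but 6 alternatives in clone 18 and 4 in clone 41 lost these calls, among them leaving out either IgM array. The remaining probe was well above background on no array. Its partner H2-Oa differed by 0.30 ± 0.12 and was not called.

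H2-Eb1 encodes a class II beta chain. Its levels were 6.98 and 6.89 in clone 18, 6.99 and 7.01 in clone 41, 6.10 and 5.83 in IgM cells, and 6.77 and 6.47 in untransfected cells. The IgE arrays lay above the untransfected arrays by a little and above the IgM arrays by more, and 2 of the 8 arrays were saturated. Only clone 41 against IgM cells was called, at 1.04 ± 0.18 (2.05-fold, limma adjusted p 0.0174). That call lay close to the 2-fold threshold and was lost under 8 of 20 alternatives, among them leaving out either array of clone 41 or of IgM cells.

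H2-DMb1 encodes a beta chain of H2-DM, which exchanges the invariant chain peptide for antigen. Its levels were 3.83 and 4.04 in clone 18, 4.64 and 4.31 in clone 41, 3.43 and 3.05 in IgM cells, and 4.76 and 4.12 in untransfected cells. The IgM arrays were lowest, and the untransfected arrays overlapped those of clone 41. It was called in clone 41 against IgM cells alone, at 1.24 ± 0.27 (2.35-fold, limma adjusted p 0.0377), and 8 of 20 alternatives lost the call, among them leaving out any 1 array of clone 18, clone 41 or IgM cells.

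H2-DMa, the alpha chain of H2-DM, differed by 1.11 ± 0.32 in the pooled comparison and H2-Aa, a class II alpha chain, by 0.94 ± 0.30 (limma adjusted p 0.057 and 0.0697). H2-DMa ran from 2.97 to 3.27 on the IgE arrays and from 1.25 to 3.28 on the control arrays, with untransfected replicate 1 as high as the clones. Untransfected replicate 2 was at 1.76. H2-DMb2 differed by 0.21 ± 0.37. Cd74, the invariant chain gene, was saturated on all 8 arrays, so no difference is given for it. H2-Ab1, a class II beta chain, was saturated on all 4 IgE arrays and both untransfected arrays, so it has no fold against untransfected cells. Against IgM cells, whose arrays were not saturated, H2-Ab1 was at least 1.93-fold higher in clone 18 and at least 1.84-fold higher in clone 41 (limma adjusted p 0.0139 and 0.0211). As recorded, these values were under the 2-fold threshold and not called. Being lower bounds, they do not show whether the difference itself reached 2-fold.

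The windows before H2-Eb1 and H2-Ob are shown because these class II genes were called in clone 41 against IgM cells. Capitals mark ATTGG and GCAACA followed by any base and ATG, a form of the X box bound by the RFX complex, on either strand. The H2-Eb1 window lies at chr17:34305617-34305866 and the H2-Ob window at chr17:34238655-34238904 of GRCm38.p6, both on the plus strand.
H2-Eb1: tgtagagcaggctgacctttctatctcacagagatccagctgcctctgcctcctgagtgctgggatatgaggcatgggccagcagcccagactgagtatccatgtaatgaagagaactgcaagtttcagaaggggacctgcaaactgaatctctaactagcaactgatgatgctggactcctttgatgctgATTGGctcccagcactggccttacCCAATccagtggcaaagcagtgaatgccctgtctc
H2-Ob: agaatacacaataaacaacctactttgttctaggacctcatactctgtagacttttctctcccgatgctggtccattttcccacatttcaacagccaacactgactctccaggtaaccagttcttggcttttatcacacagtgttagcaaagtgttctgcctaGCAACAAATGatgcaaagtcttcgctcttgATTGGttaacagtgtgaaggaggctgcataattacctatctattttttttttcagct
H2-Ob holds GCAACAAATG starting 87 bases and ATTGG 57 bases before its start, and H2-Eb1 holds ATTGG at 59 and, on the other strand, at 35 bases. This X box form was found in 1 of the 26 member windows and in 38 of the 32851 windows (0.116%). The longer CTGATTGG, which contains ATTGG, was found in 7 of the 26 member windows (26.9%) and in 3.83% of all.

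Of the class II transcription genes, Rfx5 alone was called. It encodes the DNA-binding subunit of the RFX complex. Its levels were -1.72 and -1.93 in clone 18, -1.75 and -2.17 in clone 41, -2.50 and -2.66 in IgM cells, and -2.76 and -4.03 in untransfected cells. The IgE arrays lay above the control arrays, with untransfected replicate 2 far below the rest. Rfx5 was called in 0 of the 4 comparisons of 1 clone with 1 control. The pooled difference was 1.09 ± 0.28 (2.13-fold, limma adjusted p 0.0421). Without untransfected replicate 2 it was 0.78, and 13 of 22 alternatives lost the call. The second Rfx5 probe gave 0.15 ± 0.17 (limma adjusted p 0.591), so the probes disagree. Ciita, the class II transactivator, differed by 0.40 ± 0.34, Rfxap by 0.32 ± 0.17 and Rfxank by 0.15 ± 0.30, and none was called. The Ciita probe was dim, at 91.7 to 264 intensity units. It shares 20 or more consecutive bases with probes of Cbln2, Odz1 and Prg4, and the effect on its signal was not tested.

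Class II processing was represented by Ifi30, the lysosomal thiol reductase GILT that unfolds antigen, and by Ctss, the protease that degrades the invariant chain. Ifi30 had levels of 2.35 and 2.12 in clone 18, 3.37 and 3.34 in clone 41, 3.81 and 3.17 in IgM cells, and 4.56 and 3.47 in untransfected cells. Clone 18 was lowest, and clone 41 overlapped IgM cells. Only clone 18 against untransfected cells was called, at -1.78 ± 0.38 (3.43-fold lower, limma adjusted p 0.0344), a call lost without either clone 18 array (adjusted p 0.158 and 0.164) or either clone 41 array (0.0665). Clone 41 minus clone 18 was 1.12 ± 0.38 (limma adjusted p 0.644). Ctss differed by -0.23 ± 0.12.

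Among 12 further class II processing genes tested, 1 was lower, against 5.59% of all genes, and 0 higher, against 3.4%. Of the 12, 4 had an unadjusted p under 0.05. Ctsl, cathepsin L, differed by -2.05 ± 0.56 (limma adjusted p 0.0499). This difference was larger against IgM cells, at -3.28 in clone 18 and -2.43 in clone 41. Clone 41 minus untransfected cells gave -0.82, and IgM minus untransfected cells gave 1.61. Limma called neither of these, nor Ctsl in clone 41 against IgM cells. The count of 1 lower was 0 without any 1 array of clone 18, clone 41 or IgM cells and 2 without untransfected replicate 2. Among 19 regulators upstream of these genes, 1 was lower, against 5.59% of all genes, and 0 higher, against 3.4%. Of the 19, 7 had an unadjusted p under 0.05, and 2 were lower without IgM replicate 2 or untransfected replicate 2. Irf4, which drives class switching and plasma cell differentiation, differed by -2.80 ± 0.30 (6.94-fold lower, limma adjusted p 0.00163). Its size depended on the control. Irf4 differed from untransfected cells by -4.02 in clone 18 and -3.39 in clone 41, and from IgM cells by -2.20 and -1.57. IgM minus untransfected cells gave -1.82. Neither this nor clone 41 against IgM cells was called. Irf1, an interferon-induced transcription factor, differed by -0.28 ± 0.24 and was not called.

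Among the co-stimulatory and inhibitory members, Cd86 and Btla were called, each of them also between the control lines. Cd86, a ligand of CD28 and CTLA-4, had levels of -0.77 and -0.59 in clone 18, -0.85 and -0.68 in clone 41, -4.42 and -4.30 in IgM cells, and 0.10 and -0.34 in untransfected cells. IgM cells stood far below the other lines, and the clones lay slightly below untransfected cells. The pooled difference of 1.52 ± 0.14 (2.87-fold, limma adjusted p 0.000915) rests on the IgM line. Cd86 was 12.8-fold higher in clone 18 and 12.1-fold higher in clone 41 than in IgM cells, while against untransfected cells the clones gave -0.56 and -0.64 (adjusted p 0.141 and 0.125). IgM minus untransfected cells gave -4.24 ± 0.20 (18.9-fold lower, limma adjusted p 0.000477). The sizes depended on the processing: after normexp these 3 log2 differences were 2.31, 2.21 and -2.86, all still called. In a fit of 2 groups, in which the spread between lines counts as error, the pooled call was lost (adjusted p 0.361), and it fell below 2-fold after normexp (0.83) and in the authors' deposited table (0.99).

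Btla, an inhibitory receptor for HVEM, showed the complementary pattern. Its levels were 2.61 and 2.84 in clone 18, 3.32 and 3.19 in clone 41, 3.27 and 3.03 in IgM cells, and -0.20 and -1.29 in untransfected cells. The arrays of all 3 transfected lines lay within 1 log2 unit of each other, and those of untransfected cells far below. Btla was 11.1-fold higher in clone 18, 16-fold higher in clone 41 and 14.9-fold higher in IgM cells than in untransfected cells (limma adjusted p 0.0021, 0.0014 and 0.0035). Against IgM cells the clones gave -0.43 and 0.11. The pooled 1.79 ± 0.25 thus rests on the untransfected line, and the fit of 2 groups lost it (adjusted p 0.254).

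**Figure D5:**
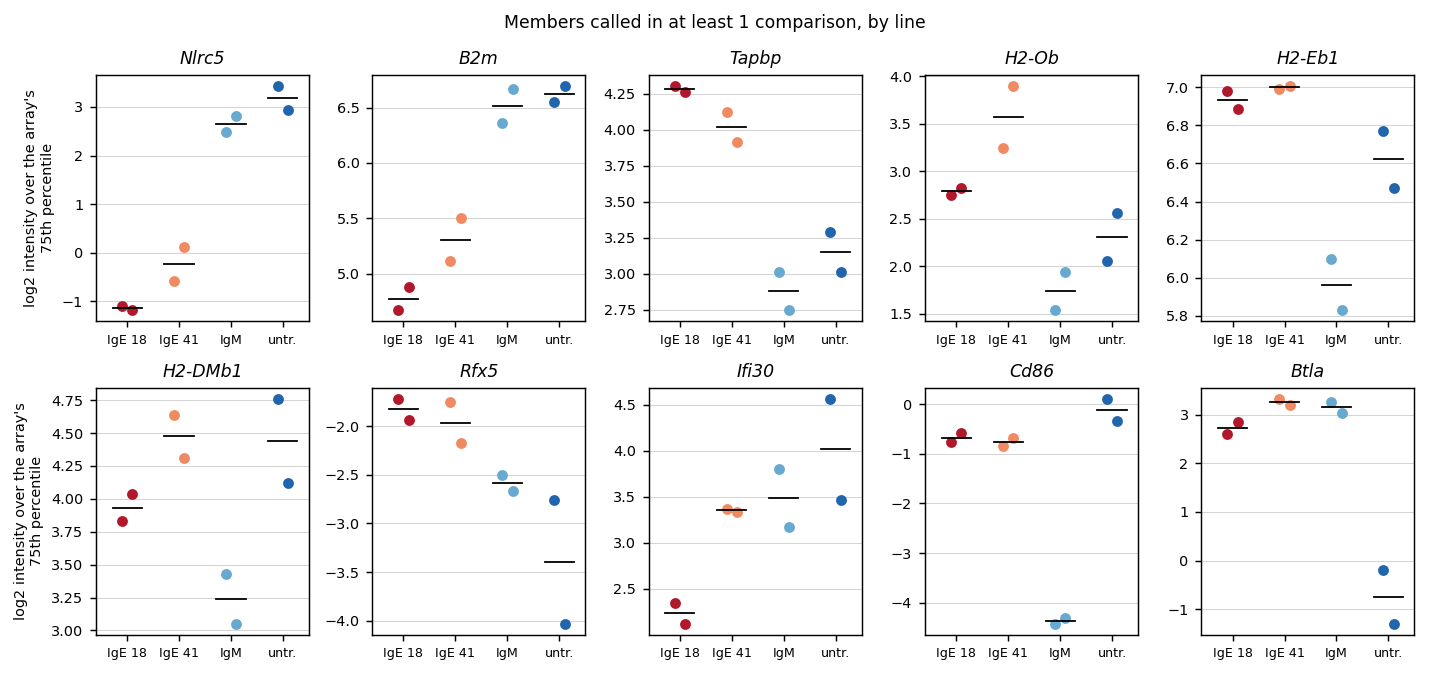
Log2 intensity relative to the array's 75th percentile on each of the 8 arrays for the 10 members called in at least 1 comparison (untr., untransfected). Points are arrays and bars are means of a line, and vertical scales differ between genes. Nlrc5 and B2m are low in both IgE clones, Tapbp is high in both, Cd86 is low in IgM cells and Btla is low in untransfected cells.

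Cd80, the other ligand of CD28 and CTLA-4, gave readings that differed between its probes. The brighter probe, at chr16:38486772-38486831 of mm9, ran from 0.03 to 0.30 on the IgE arrays and from 0.02 to 0.32 on the control arrays. It differed by 0.07 ± 0.12. The other probe, at chr16:38479343-38479402 on the plus strand and thus nearer the start of the gene, gave -5.74 and -6.68 in clone 18, -5.28 and -6.85 in clone 41, -3.14 and -3.16 in IgM cells, and -1.64 and -1.81 in untransfected cells. It was well above background on 0 of the 4 IgE arrays and on all 4 control arrays, so it passed the filter through the control arrays alone. It is shown because the probes disagree.
Cd80 second probe: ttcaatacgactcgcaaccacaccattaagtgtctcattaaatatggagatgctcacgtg
The fit of all probes gave a limma adjusted p of 0.00119 for the IgE lines against the control lines, computed with IgE signals that were not well above background. Its fold is a bound, computed from the lowest signal well above background on the dim side. The IgE lines were at least 4.80-fold below the control lines. Clone 18 was at least 8.10-fold below untransfected cells and 3.02-fold below IgM cells, and clone 41 was at least 7.64-fold below untransfected cells and 2.85-fold below IgM cells. The comparisons with IgM cells were lost under 5 alternatives in clone 18 and 7 in clone 41, among them normexp and leaving out either IgM array. No probe of another gene shared 20 consecutive bases with either Cd80 probe. Which probe follows the Cd80 message was not tested.

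Icosl, the ICOS ligand, differed by 1.06 ± 0.47 (limma adjusted p 0.162), with levels of 0.97 to 2.08 on IgE arrays and -1.28 to 1.79 on control arrays. Cd274, the inhibitory ligand PD-L1, differed by -0.18 ± 0.25. Neither was called in any comparison.

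Of 27 other co-stimulatory and inhibitory surface genes, 17 were tested. Among these, 6 were lower in the IgE lines, against 5.59% of all genes, and 0 higher, against 3.4%. Of the 17, 15 were well above background on all 8 arrays, and in a fit of such genes 4 of the 15 were lower and 0 higher, with a median of -0.45. The other calls, Cd70 and Lgals9, had passed the filter through the control arrays alone. Cd70, the ligand of CD27, was well above background on no IgE array and was at least 78.8-fold lower in the IgE lines than in the control lines (limma adjusted p 0.000174). It was also lower in IgM cells than in untransfected cells, at -5.05 ± 0.75 (limma adjusted p 0.0243). Lgals9, the galectin-9 gene, was at least 7.60-fold lower in the IgE lines (limma adjusted p 0.000627). For Cd70 and Lgals9 the adjusted p of the IgE lines was computed with IgE signals that were not well above background, so only the bounds are read. Tnfsf9, the 4-1BB ligand, differed by -2.23 ± 0.35 and Cd5, a negative regulator of B cell receptor signals, by -1.72 ± 0.19. Among the B cell markers, 3 of 8 were lower, against 5.59% of all genes, with Fcer2a at -1.82 ± 0.42 among them. The count was 2 of 8 without any 1 array of the clones or of IgM cells. Fcer2a was also low in the IgM transfectant. Relative to untransfected cells its log2 values were -2.78 (clone 18), -3.09 (clone 41) and -2.23 (IgM, not called). The pooled Fcer2a value thus leans on the untransfected line. Cr2 at -1.67 ± 0.22 was lower in all 4 clone comparisons, as was the macrophage marker Emr1 at -4.41 ± 0.37. The other calls among the marker lists were Cd68, a macrophage marker, which was higher, and Cd3g, a T cell marker, which was lower. Cd3g was well above background on 2 control arrays, those of IgM cells, and on no IgE array. It was also called higher in IgM cells than in untransfected cells, and was called in neither clone against untransfected cells. Of the 4 dendritic cell markers tested, 0 were called by limma and 0 had an unadjusted p under 0.05. The part of these changes in the results above was not tested.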

How the data were processed

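Per the labels' protocols and the file headers, each of the 8 samples was labelled with Cy3 and hybridised to 1 Agilent mouse array with 55681 probes. The deposited intensity values (processed signals) were background-corrected by Agilent Feature Extraction, per the file headers. The authors' deposited table holds log2 values of unstated normalization that rank probes as the median pixel intensity does and have column medians of 5.90 to 5.92. It served as an alternative.

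Each array's log2 75th percentile was subtracted. Probes kept (29140) had both arrays of some line well above background, the brightest per gene name was used, and limma 3.58.1 in R 4.3.3 was fitted with 1 mean per line over all 8 arrays, with Benjamini-Hochberg adjustment over 19973 genes. Second probes came from a fit of all probes kept. The fit was tested on simulated data. Where a probe was saturated or dim on every array of 1 side, the fold is given as a bound. All members may be named. Of the other lists, up to 4 called genes per direction and genes called in all 4 clone comparisons were named. The members and lists were chosen with earlier results of these data known. Same-numbered arrays had correlations of deviations from -0.02 to 0.32 between lines, so the numbers were not taken as pairs. Coordinates are mm9 for probes. Alternatives covered background correction, scaling, filters, thresholds, the replicate block, 2-group fits and leaving out each array. The array files share 1 slide and 1 scan time. Some listed genes are not reported here by name. The number of arrays limits the precision.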

Additional observations from a re-analysis of the deposited data

Results flagged for a closer look

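On the 4 IgE arrays, H2-Ab1 stood at 7.23 on clone 18 replicate 2, away from 7.10 to 7.11 on the others, all of them saturated. On the 4 control arrays, untransfected replicate 2 stood apart for Rfx5, at -4.03 with the others between -2.76 and -2.50, and for H2-D1, at 6.50 with the others between 5.21 and 5.33. Of 64 sets of 4 arrays examined by Dixon's ratio, these 3 exceeded its critical value, which chance exceeds in about 1 in 20 sets.

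The control lines differed from each other in Cd86, at -4.24 in IgM minus untransfected cells, and in Btla, at 3.89 (limma adjusted p 0.000477 and 0.0035), so the difference between an IgE clone and a control depended on the control for both genes.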

How the results depend on the processing

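No called value reversed under any alternative. B2m and Nlrc5 kept their pooled calls in all 22 alternatives, and clone 41 minus clone 18 gave 0 calls in all 20. The pooled count of 7 members was 11 by adjusted p alone, 4 in a fit of 2 groups that ignores the line, 4 where that fit takes the line as random, and 5 to 10 with 1 array left out. With the replicate block it was 8, for clone 18 minus IgM 7 in place of 4, and for clone 41 minus IgM 10 in place of 7. The labels do not say whether the numbers pair the arrays, and they were not taken as pairs.

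For clone 41 minus untransfected, 3 became 5 with normexp, 5 with the trend and robust prior and 7 with no scaling. The last of these was chosen after seeing the data. For clone 18 minus IgM, 4 became 7 with every probe as its own feature. With no filter on dim probes, clone 41 minus IgM had 4 in place of 7, and 1 member in place of 2 was called in all 4 clone comparisons. Causes were not tested.

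With 1 array left out, clone 18 minus untransfected had 3 to 11 (3 without either clone 18 array, 11 without untransfected replicate 1) and clone 41 minus untransfected 2 to 9 (2 without clone 41 replicate 1, 9 without untransfected replicate 1). Clone 18 minus IgM had 4 to 8 (8 without either untransfected array), clone 41 minus IgM 3 to 10 (3 without any 1 array of IgM or clone 41, 10 without either untransfected array), IgM minus untransfected 2 to 5 (5 without untransfected replicate 2), and the pattern over all 4 clone comparisons 1 to 4 (1 without IgM replicate 1, IgM replicate 2 or clone 41 replicate 1, 4 without untransfected replicate 1).

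Over all genes, 679 higher and 1116 lower became 418 and 611 with normexp, 434 and 683 in the authors' deposited table, 465 and 620 with genes above background on all 8 arrays, and 1671 and 1891 by adjusted p alone. With no scaling they were 383 and 1923, with the median of all genes at -0.29. Saturation limits Cd74, H2-Ab1 and B2m, and background limits the second Cd80 probe.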
